A study of Mus musculus with 201 samples.

Results

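Dentate granule cells are the principal neurons of the dentate gyrus of the hippocampus and are marked by the transcription factor PROX1. Whole granule cells of saline-injected mice were compared by their level of *Fos*, which encodes a subunit of the AP-1 transcription factor and is among the first genes transcribed in an activated neuron. A cell was called Fos-high if its *Fos* value was above 100 TPM, a transcript level scaled for gene length and for the total of each cell, and Fos-low if it was 100 TPM or less. Only cells with a total expected count over 50000 were used, the expected count being the estimated number of reads of a gene. This left 38 of the 47 saline whole cells, among 201 cells and nuclei in the series, of which 21 were Fos-high and 17 were Fos-low. *Fos* itself chose the groups and is left out of every result that follows.

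The saline cells came from *Prox1*-GFP mice, in which green fluorescent protein is linked to the *Prox1* promoter. Per the study's methods, the mice were injected with saline and killed an hour later, and the hippocampi of the group were pooled before dissociation. The tissue was digested with a protease, papain in the methods, and GFP+ cells were sorted by FACS and amplified singly with Smart-seq2. Animal ages are not given in the labels. Other samples of the series serve as a comparison. Per the methods, *Prox1*-GFP whole cells were prepared in the same way after pentylenetetrazole (PTZ), a GABA(A) receptor antagonist that causes seizures. The titles of saline and PTZ cells end in different codes that the labels do not explain, so what these mark cannot be told apart from treatment. The others are C57BL/6 nuclei released by Dounce homogenization after exploration of an unfamiliar enclosure (NE) and sorted as PROX1+ FOS+ or PROX1+ FOS-. The labels name no animal, and all saline cells share 1 pool. The 38 cells are therefore cells of 1 sample and not replicates, and no p-value or standard error is given. Differences are described by their size, by the SD over cells and by the share of Fos-high and Fos-low cell pairs in which the Fos-high cell had the higher value, with ties counted as 0.5 of a pair. Intervals on shares of cells are exact 95% Clopper-Pearson intervals, which cover counting error only.

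Immediate early genes are transcribed within minutes of a stimulus without a need for new protein. Calcium entry and receptor signalling activate the MAPK and CREB pathways, whose factors are already bound or poised at these promoters. Many of the first products are transcription factors of the FOS and JUN, EGR and NR4A families. Others act at synapses, such as ARC, or feed back on the kinases, such as the DUSP phosphatases. In the dentate gyrus these genes are widely used as marks of recently active granule cells. The study detected *Fos*, *Egr1* and *Arc* RNA at similar levels in saline and PTZ whole cells. It reports that, in its hands, papain treatment elicited early genes whatever the animal had experienced. Whether the Fos-high state of a saline cell arose in the animal or during dissociation was not tested.

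The 2 groups were far apart in *Fos*. In the Fos-high cells it ranged from 190.3 to 12419 TPM with a median of 4174 TPM, and in the Fos-low cells from 0 to 2.58 TPM with a median of 1.24 TPM. The 4 lowest Fos-high cells had 190.3, 487.9, 506.6 and 836.8 TPM, and the 3 highest Fos-low cells had 2.58, 2.10 and 2.04 TPM. No cell lay between 2.58 and 190.3 TPM, so a threshold of 10 TPM gave the same groups.

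The total expected count ranged from 401331 to 2115279 in Fos-high cells (median 887743) and from 417093 to 2696043 in Fos-low cells (median 1143671). Genes with a TPM above 1 numbered 6470 ± 1101 (SD, n = 21 cells) in Fos-high cells and 6028 ± 862 (SD, n = 17 cells) in Fos-low cells, a difference of 442 genes that was smaller than the SD over Fos-high cells. The difference was 722 genes without the 3 Fos-high cells with high immature markers that are described below, and 230 genes without the cells with number 1 in their title. After every cell was thinned to 401322 counts, the values were 6400 ± 1056 and 5947 ± 839 genes. The numbers in the cell titles were not evenly shared between the groups, since all 5 cells with title number 1 were Fos-high and 2 of the 7 cells with number 5 were. What the title numbers stand for is not given in the labels.

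The labelled cell type was checked against its markers. *Prox1* had a TPM above 1 in all 21 Fos-high and all 17 Fos-low cells, with a difference of 0.61 in mean log2(TPM + 1). *Rbfox3*, which encodes the neuronal protein NEUN, was above 1 TPM in 19 of 21 and 14 of 17 cells. The summed level of 16 granule cell markers ranged from 2070 to 8368 TPM in Fos-high cells and from 2652 to 7942 TPM in Fos-low cells, so both groups carried the granule cell program at overlapping levels. Of markers of other cells, *Gfap* and *Aqp4* of astrocytes and *Cldn5* of endothelium were at 0 TPM in every cell, and *Gad2* of interneurons was above 1 TPM in no cell. *Gad1* was above 1 TPM in 19 of 21 Fos-high and 14 of 17 Fos-low cells. *Mbp* of oligodendrocytes was above 1 TPM in 16 of 21 and 9 of 17 cells. The summed TPM of 12 listed microglia markers was at most 89.8 and 167 in the 2 groups. Over the other cell type lists the summed medians were 308 and 972 TPM for interneurons (*Gad1* had medians of 154 and 158 TPM and *Cck* of 49.5 and 905 TPM), 65.2 and 144 TPM for pyramidal and mossy cells, 73.5 and 25.1 TPM for oligodendrocytes, 62.3 and 87.8 TPM for astrocytes and 1.08 and 0.84 TPM for endothelium and pericytes, Fos-high first. No marker on these 6 lists passed the size rule given below. Only 1 or 2 markers per list were above 1 TPM in enough cells to be compared, so this is a weak check.

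A group of 3 Fos-high cells stood apart. Their summed level of 10 immature neuron markers was 9870, 6472 and 6407 TPM, against 90.0 to 1239 TPM in the other 18 Fos-high cells and 6.42 to 1240 TPM in the Fos-low cells. The 3 cells had 172 to 560 TPM of *Dcx*, which encodes the doublecortin of migrating neurons, 1446 to 3523 TPM of the tubulin gene *Tubb3* and 267 to 1031 TPM of the transcription factor gene *Sox11*. *Calb1*, a calcium-binding protein gene of mature granule cells, was at 0 to 0.96 TPM in them, while its median was 295 TPM in the other Fos-high cells and 222 TPM in the Fos-low cells. *Prox1* was at 1415 to 2109 TPM, higher than in any other cell kept. The 3 cells had 5460, 4455 and 4441 genes above 1 TPM, against a median of 6582 over all Fos-high cells. These 3 cells, with *Fos* at 506.6, 190.3 and 3402 TPM, were picked out from the values themselves, and many of the values that follow are also given without them. Without them the difference of *Prox1* was 0.32 in place of 0.61.

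Each gene was compared by the difference in mean log2(TPM + 1), Fos-high minus Fos-low, over the 9081 of 42790 genes that had a TPM above 1 in at least 10 of the 38 cells. A gene was counted as higher if the difference was 2 or more and the Fos-high cell was higher in at least 75% of the 357 pairs, and as lower if the difference was -2 or less and the Fos-high cell was higher in at most 25% of pairs. Under this size rule 105 genes were higher (1.16% of the genes compared) and 54 were lower (0.595%), 159 in all (1.75%). The median difference over all 9081 genes was 0.23, with quartiles of -0.41 and 0.90, so the bulk of genes lay slightly above 0. No gene separated the groups without overlap of the cells. Without the 3 cells with high immature markers, 152 genes were higher and 34 lower, and 88 of the 105 and 32 of the 54 still passed. Without the 5 cells with title number 1, 115 were higher and 82 lower, and 77 of the 105 and 45 of the 54 still passed. The early genes *Jun*, *Gadd45g*, *Trib1*, *Dusp6* and *Spry1* and the stress gene *Ddit4* were among those that then did not, each with a difference between 1.80 and 4.08.

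**Figure D1:**
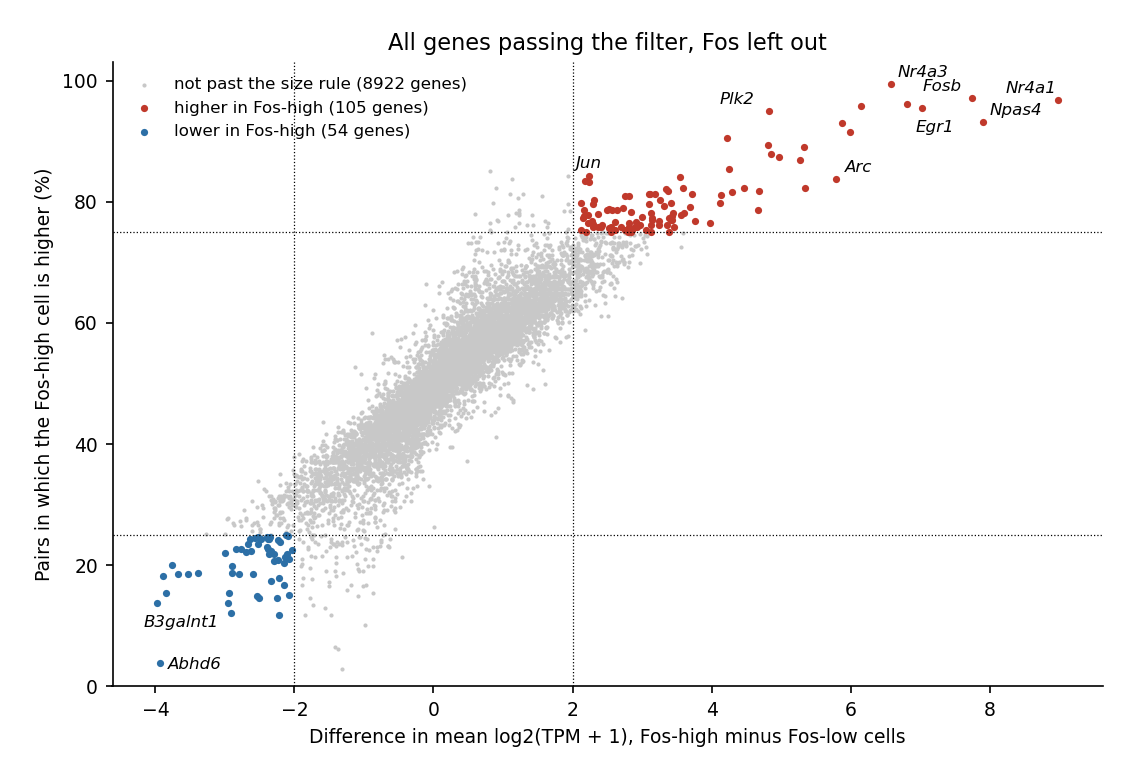
Each of the 9081 genes is placed by its difference in mean log2(TPM + 1), Fos-high minus Fos-low saline cells (x axis), and by the percentage of cell pairs in which the Fos-high cell was higher (y axis), and dotted lines mark the size rule. The 105 higher genes reach a difference of 8.98, with early response genes at the far right, and the 54 lower genes reach -3.97.

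The 10 largest positive differences all belonged to genes known from the early response to activity or stress. *Nr4a1* (8.98), *Npas4* (7.90), *Fosb* (7.74), *Egr1* (7.03), *Junb* (6.81), *Nr4a3* (6.58), *Tiparp* (6.16), *Ppp1r15a* (5.99), *Btg2* (5.87) and *Arc* (5.79) led the ranking. The Fos-high cell was higher in 83.8% to 99.4% of pairs for these genes. Their differences were not carried by the 3 cells with high immature markers, since without those cells they ran from 6.06 for *Tiparp* to 9.13 for *Npas4*.

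**Figure D2:**
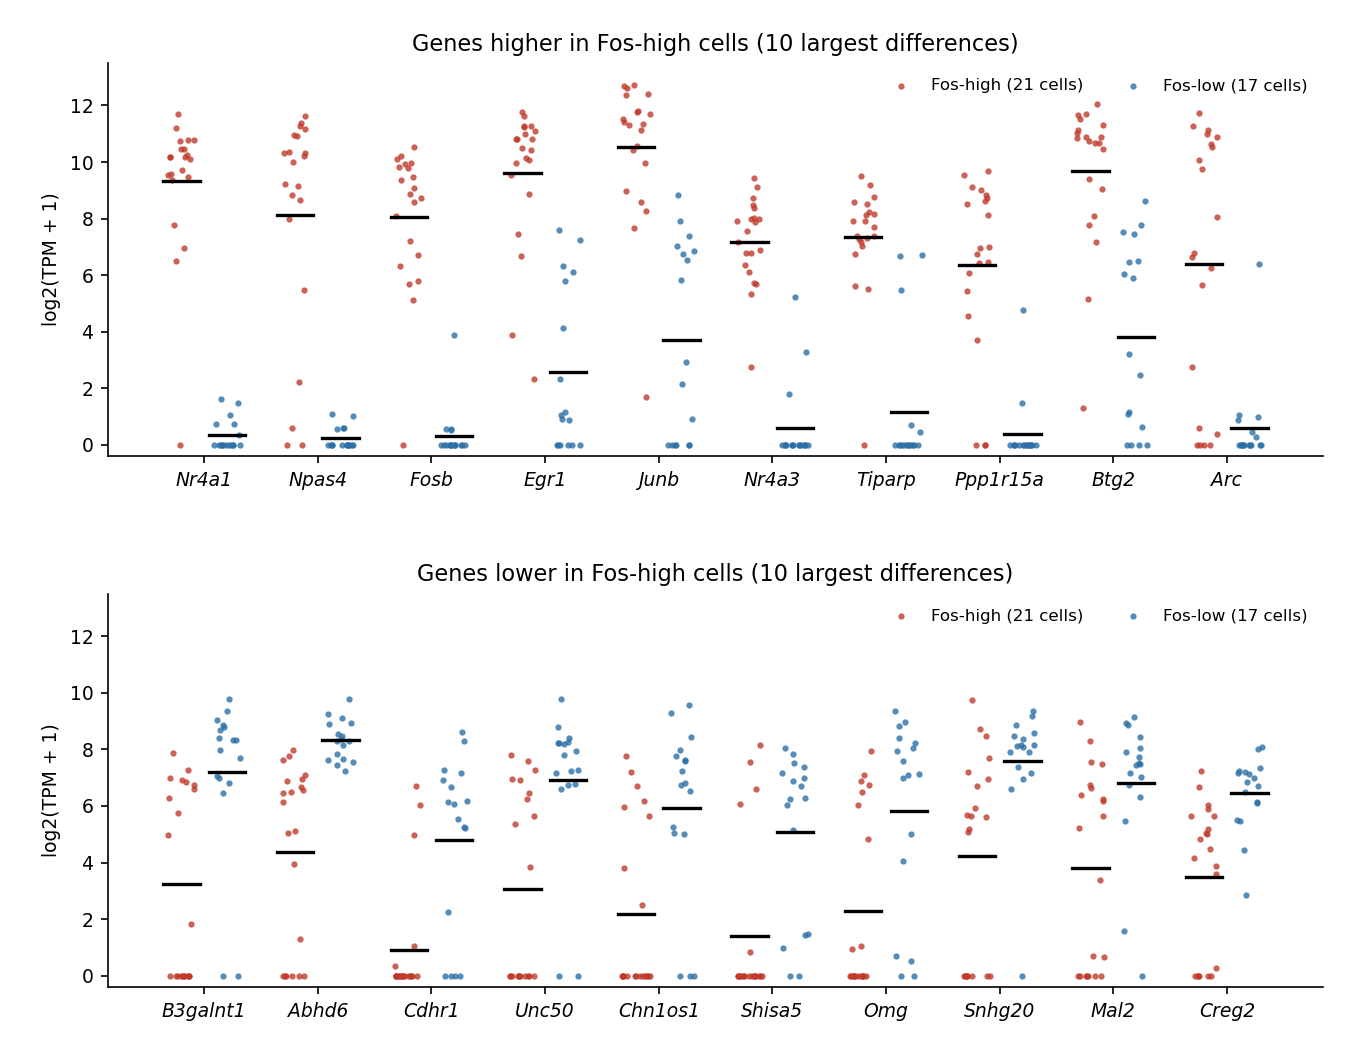
Each point is the log2(TPM + 1) of a gene in 1 cell, Fos-high cells in red (21) and Fos-low cells in blue (17), and bars are means. In the upper panel *Nr4a1*, *Npas4* and *Fosb* are near 0 in nearly all Fos-low cells, and in the lower panel *Abhd6* is present in all 17 Fos-low cells and at 0 in several Fos-high cells.

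Among 14 genes of AP-1 and other bZIP factors, which bind DNA as pairs, 8 passed the filter and 5 were higher (*Fosb*, *Jun*, *Junb*, *Jund* and *Atf4*). Of all genes compared, 1.16% were higher. The median difference was 2.50 over the 8 genes, against 0.23 over all genes passing the filter, and 1.24 over all 14 listed genes. *Junb*, at chr8:84974484-84978718 (GRCm38, minus strand), encodes a partner of FOS. It ranged from 2.25 to 6748 TPM in Fos-high cells (median 2601) and from 0 to 451 TPM in Fos-low cells (median 6.71). The ranges overlapped through a few low Fos-high cells, and 10 of 17 Fos-low cells also had a *Junb* level above 1 TPM. Reads were not separated by strand in the protocol named, and *Junb* overlaps *Prdx2* on the other strand.

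*Fosb*, at chr7:19302696-19310051 (minus strand), encodes the closest relative of FOS. It was above 1 TPM in 20 of 21 Fos-high cells (95.2%, interval 76.2 to 99.9%), with a median of 466 TPM and a highest value of 1493 TPM. In Fos-low cells it was above 1 TPM in 1 of 17 (5.88%, interval 0.149 to 28.7%), at 13.7 TPM. Thus *Fosb* separated the groups nearly as an on or off gene, whereas *Jun* did not. *Jun* was above 1 TPM in 20 of 21 and 16 of 17 cells, with medians of 789 and 163 TPM and a difference of 2.24. The difference in *Jun* was 1.80 without the 5 cells with title number 1 and 3.39 without the 3 cells with high immature markers, and *Jun* failed the rule in 3 of the 38 sets that left out 1 cell. *Jund*, a JUN paralog that is usually less inducible, was above 1 TPM in 17 of 21 and 5 of 17 cells at low levels, with a highest value of 145 TPM. *Atf4*, the effector of the integrated stress response, had medians of 276 and 0 TPM and a difference of 4.82.

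Of 9 genes of EGR and NR4A factors and their NAB corepressors, 8 passed the filter and 5 were higher, where 1.16% of all genes compared were. The median difference was 5.10 over the 8, against 0.23 over all genes passing the filter, and 4.86 over all 9. The orphan nuclear receptor gene *Nr4a1*, at chr15:101254269-101274795 (plus strand), had the largest difference of all genes, with means of 9.33 ± 2.50 (SD, n = 21 cells) and 0.35 ± 0.57 (SD, n = 17 cells) on the log2(TPM + 1) scale. Its highest level in Fos-low cells was 2.11 TPM, and its median in Fos-high cells was 1143 TPM. A single Fos-high cell was at 0 TPM. *Nr4a3*, at chr4:48045153-48086447 (plus strand), was above 1 TPM in all 21 Fos-high cells, from 5.78 to 683 TPM with a median of 186 TPM, and in 3 of 17 Fos-low cells, at up to 36.2 TPM. It had the highest share of pairs of all genes, 99.4%. *Nr4a2* had medians of 126 and 0 TPM and was above 1 TPM in 18 of 21 and 4 of 17 cells. All 3 NR4A genes were above 1 TPM together in 18 of 21 Fos-high cells and in 0 of 17 Fos-low cells, which allows a share of up to 17.6% if 3 of 17 cells is taken as the limit for a count of 0.

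*Egr1*, a zinc finger factor that responds to MAPK signalling, ranged from 4.03 to 3515 TPM in Fos-high cells (median 1432) and from 0 to 192 TPM in Fos-low cells (median 1.07). Every Fos-high cell and 9 of 17 Fos-low cells had a level above 1 TPM, so detection alone divided the groups less well than level. *Egr4* was above 1 TPM in 18 of 21 and 3 of 17 cells, with medians of 127 and 0 TPM. *Egr2* passed the size rule without the 3 cells with high immature markers and not with them. *Junb* and *Egr1* were both above 1 TPM in 21 of 21 Fos-high and 5 of 17 Fos-low cells.

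The list of 24 other early response genes had 11 that passed the filter and 4 that were higher, where 1.16% of all genes compared were. The median difference was 2.865 over the 11, against 0.23 over all genes passing the filter, and 0.99 over all 24. *Npas4*, at chr19:4984355-4990316 (minus strand), encodes a factor induced in neurons by calcium entry. It was above 1 TPM in 18 of 21 Fos-high cells (85.7%), with a median of 1013 and a highest value of 3137 TPM. In Fos-low cells its highest value was 1.15 TPM. *Npas4* was at or near 0 in each of the 3 cells with high immature markers, whose highest value was 3.72 TPM. *Nr4a1*, *Npas4* and *Fosb* were above 1 TPM together in 17 of 21 Fos-high cells and in 0 of 17 Fos-low cells.

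*Btg2*, an antiproliferative gene, ranged from 1.49 to 4236 TPM in Fos-high cells (median 1722) and from 0 to 397 TPM in Fos-low cells (median 8.31). *Gadd45g*, a growth arrest and DNA damage inducible gene, had medians of 1676 and 29.3 TPM and reached 6818 TPM. Of the Fos-low cells 11 of 17 had it above 1 TPM. *Tiparp*, an ADP-ribosyltransferase gene, was above 1 TPM in 20 of 21 and 3 of 17 cells, and those 3 Fos-low cells overlapped the Fos-high range with up to 104 TPM.

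Among 35 early effectors at synapses and in signalling, 20 passed the filter and 6 were higher (*Arc*, *Plk2*, *Rgs2*, *Arl4d*, *Trib1* and *Fbxo33*), where 1.16% of all genes compared were. The median difference was 2.04 over the 20, against 0.23 over all genes passing the filter. Over all 35 listed genes, those below the filter included, it was 0.18. *Plk2*, a kinase gene that acts on synaptic strength, was above 1 TPM in all 21 Fos-high cells, with a median of 1211 TPM. It was also above 1 TPM in 15 of 17 Fos-low cells, with a median of 32.1 TPM, and so differed in level rather than in detection. *Rgs2*, a regulator of G protein signalling, had medians of 690 and 2.72 TPM. *Arl4d*, a small GTPase gene, was above 1 TPM in 14 of 21 and 1 of 17 cells, with up to 2513 TPM in Fos-high cells and up to 2.81 TPM in Fos-low cells. *Fbxo33* and *Trib1* had medians of 43.7 and 10.4 TPM in Fos-high cells and of 0 TPM in Fos-low cells. *Homer1* and *Pcdh8* also passed without the 3 cells with high immature markers and not with them.

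*Arc*, at chr15:74669083-74672570 (minus strand), whose product traffics glutamate receptors from the synapse, divided the Fos-high cells themselves. It was above 1 TPM in 15 of 21 Fos-high cells (71.4%, interval 47.8 to 88.7%) and in 2 of 17 Fos-low cells (11.8%, interval 1.46 to 36.4%), at most 83.0 TPM in the latter. The highest *Arc* value in Fos-high cells was 3361 TPM and the median 109 TPM. The 3 cells with high immature markers were among the 6 Fos-high cells without *Arc*, with at most 0.53 TPM, and 15 of the other 18 had it. The 6 Fos-high cells without *Arc* were lower in most of the other early genes. They were also low in *Fos*, with 190.3, 487.9, 506.6, 836.8, 1477 and 3402 TPM, which include the 5 lowest values of the Fos-high cells. How far the contrasts by *Arc* follow the level of *Fos* was not tested. Median *Npas4* was 1288 TPM in the 15 cells with *Arc* and 2.13 TPM in the 6 without, and median *Junb* was 3282 and 345 TPM. *Trib1* was above 1 TPM in 12 of the 15 and in 0 of the 6. By contrast, median *Atf4* was 276 TPM in the cells with *Arc* and 417 TPM in those without, and median *Dusp4* was 32.3 and 56.1 TPM. These 2 contrasts rested on the 3 cells with high immature markers. In those cells the log2(TPM + 1) of *Atf4* was 9.19, 10.29 and 9.80, and that of *Dusp4* was 3.69, 8.33 and 7.21. In the other 3 cells without *Arc* it was 0, 7.98 and 7.93 for *Atf4* and 6.66, 0 and 0 for *Dusp4*.

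Of 16 feedback inhibitors of MAPK signalling, 10 passed the filter and 3 were higher, where 1.16% of all genes compared were. The median difference was 1.85 over the 10, against 0.23 over all genes passing the filter, and 0.82 over all 16. *Dusp6*, a phosphatase gene that acts on ERK, was above 1 TPM in 13 of 21 Fos-high cells (61.9%, interval 38.4 to 81.9%), with up to 1240 TPM. None of 17 Fos-low cells had it above 1 TPM, and a count of 0 of 17 allows a share of up to 17.6% by the limit of 3 cells and of up to 19.5% by the Clopper-Pearson interval. *Dusp4* and *Spry1* were above 1 TPM in 15 and 13 Fos-high cells and in 3 and 2 Fos-low cells.

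Genes that sit above the early response were compared in the same way. Of 33 listed upstream kinases and factors, 28 passed the filter and 1 was higher, where 105 of the 9081 genes compared were (1.16%). The median difference was 0.36 over the 28, against 0.23 over all genes passing the filter, and 0.20 over all 33 listed. Without the 3 cells with high immature markers the median over the 28 genes was 0.63 in place of 0.36, and that over all genes was 0.35 in place of 0.23. The gene that was higher was *Srf*, which encodes serum response factor and is itself known to be inducible. It was above 1 TPM in 15 of 21 and 1 of 17 cells, at medians of 12.9 and 0 TPM. With 10 in place of 1 added to the TPM, the difference of *Srf* was 1.11 and it did not pass. Of 25 heat shock and stress genes 16 passed the filter and 2 were higher, the co-chaperone gene *Dnajb1* (3.36) and the mTORC1 inhibitor gene *Ddit4* (2.37), and the median over all 25 was 0.57. *Dnajb1* did not pass the rule without the 3 cells with high immature markers, with a share of pairs just under the limit at a difference of 3.29. *Ppp1r15a*, which is on none of the lists and encodes a phosphatase subunit that ends the integrated stress response, was above 1 TPM in 18 of 21 and 2 of 17 cells, with a median of 122 TPM in Fos-high cells.

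To describe how cells differed in the early response as a whole, the 23 genes on the first 5 lists that were higher were taken as a panel. Since the panel was chosen by this comparison, its levels in the groups are a description. Fos-high cells had 10 to 23 of the 23 genes above 1 TPM (19.6 ± 3.75, SD, n = 21 cells), and Fos-low cells had 3 to 13 (7.47 ± 3.24, SD, n = 17 cells). The mean log2(TPM + 1) of the panel was 6.97 ± 1.89 in Fos-high cells, from 2.97 to 8.91, and 1.72 ± 0.85 in Fos-low cells, from 0.47 to 3.43. The groups overlapped through 2 Fos-high cells, at 2.97 and 3.40, that lay below the highest Fos-low cell. The first had 487.9 TPM of *Fos* and 10 panel genes, and the second was 1 of the 3 cells with high immature markers. The other 2 of those cells, at 4.15 and 4.64, and the cell with 836.8 TPM of *Fos*, at 4.81, came next. No panel gene other than *Jun*, *Junb*, *Egr1*, *Gadd45g*, *Btg2*, *Plk2* and *Rgs2* was above 1 TPM in more than 8 of 17 Fos-low cells.

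**Figure D3:**
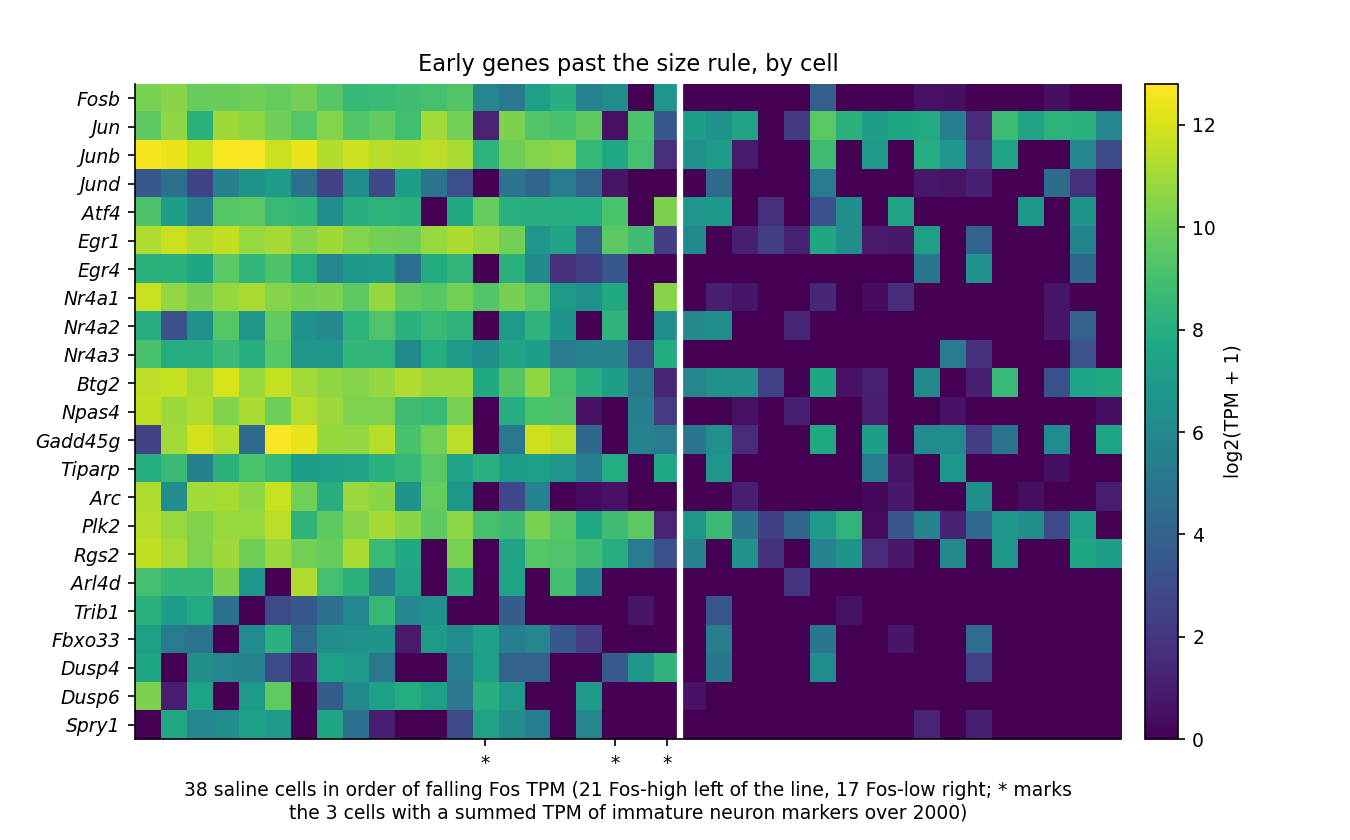
Columns are the 38 saline cells in order of falling *Fos* TPM with Fos-high cells left of the white line, rows are the 23 early genes of the panel, and colour is log2(TPM + 1). The 3 starred cells with high immature markers lack *Arc*, *Trib1* and most of the *Npas4* signal, and in Fos-low cells *Jun*, *Btg2* and *Plk2* remain visible.

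Within the 21 Fos-high cells the panel genes tended to vary together. Over the 253 pairs of panel genes the median Spearman rho was 0.38, and 230 pairs were positive. Pairs of other genes were not computed for comparison. The panel was chosen by a split on *Fos*, which itself ranged widely among these cells, and how much of the covariation follows from that was not tested. The highest values were 0.88 for *Fosb* with *Npas4* and 0.88 for *Fosb* with *Junb*, and the lowest was -0.52 for *Jund* with *Dusp4*. Without the 3 cells with high immature markers the median was 0.36 over 18 cells, with 225 positive pairs. The points are cells of 1 pool and library set, and the panel mean had a rho of 0.16 with the total count and 0.26 with the number of genes detected. These values hide the low end. The Fos-high cells with the lowest panel means, at 2.97, 3.40, 4.15 and 4.64, had 4714, 4455, 5460 and 4441 genes above 1 TPM, the lowest numbers among Fos-high cells. How far the number of genes detected bears on the panel mean was not tested.

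**Figure D4:**
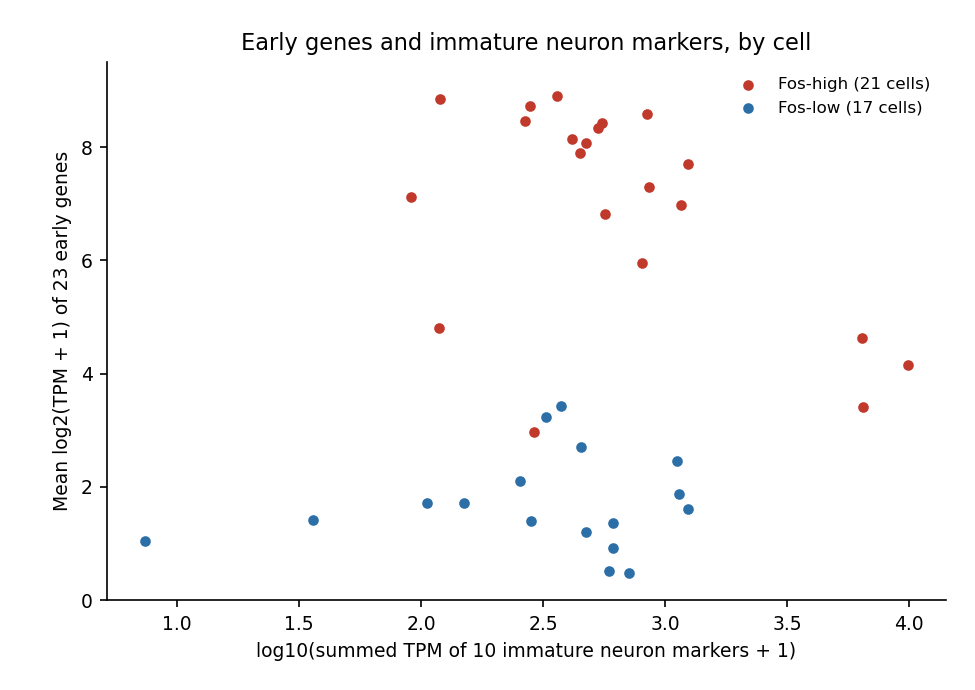
Each point is 1 saline cell, with log10 of the summed TPM of 10 immature neuron markers plus 1 on the x axis and the mean log2(TPM + 1) of the 23 early genes on the y axis. The 3 Fos-high cells at the far right have panel means of 3.40 to 4.64, lower than nearly all other Fos-high cells, and the highest Fos-low cell is at 3.43.

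The panel genes were also compared in sequence. Of the 23 genes, 19 have an entry in the RefSeq promoter table (GRCm38.p6), and *Egr1*, *Arc*, *Trib1* and *Dusp4* have none. The 250 bases before each annotated start were searched on both strands. The cyclic AMP response element, the site that CREB binds, was searched as its short form TGACG and as the palindrome TGACGTCA, which contains the short form. At least 1 TGACG was found in 12 of the 19 promoters (63.2%), against 33.2% of the 6557 genes passing the filter that have an entry and 19.8% of all 27025 promoters. The palindrome was found in *Btg2*, *Plk2* and *Arl4d* (15.8%), against 3.51% and 1.77%. The AP-1 site TGANTCA was found in none of the 19, against 4.56% and 7.82%, and the CArG box of serum response factor in none, against 1.30% and 1.62%. Of the 77 higher genes with an entry 46.8% held TGACG, and of the 37 lower genes 40.5%. A match is not evidence of binding, and these letters can be absent here and present farther away.

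The promoters of 4 genes with several TGACG matches or with the palindrome are shown 5′ to 3′ on the strand of the gene, ending at the base before the annotated start, with TGACG, its reverse complement CGTCA or the palindrome in capitals. *Nr4a1* (chr15:101266596-101266845, plus strand) and *Nr4a3* (chr4:48045055-48045304, plus strand) each hold 4 matches. *Npas4* (chr19:4989972-4990221, minus strand) holds 2 matches, and *Btg2* (chr1:134079156-134079405, minus strand) holds the palindrome.
Nr4a1: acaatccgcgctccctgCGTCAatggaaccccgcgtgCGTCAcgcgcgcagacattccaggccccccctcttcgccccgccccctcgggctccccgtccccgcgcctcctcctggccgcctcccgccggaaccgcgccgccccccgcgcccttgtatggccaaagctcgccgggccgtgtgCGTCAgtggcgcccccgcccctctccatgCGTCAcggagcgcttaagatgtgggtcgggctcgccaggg
Nr4a3: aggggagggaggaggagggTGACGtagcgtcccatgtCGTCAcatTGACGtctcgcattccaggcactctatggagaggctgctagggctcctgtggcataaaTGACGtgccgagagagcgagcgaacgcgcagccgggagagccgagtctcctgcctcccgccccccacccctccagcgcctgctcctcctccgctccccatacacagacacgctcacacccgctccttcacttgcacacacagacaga
Npas4: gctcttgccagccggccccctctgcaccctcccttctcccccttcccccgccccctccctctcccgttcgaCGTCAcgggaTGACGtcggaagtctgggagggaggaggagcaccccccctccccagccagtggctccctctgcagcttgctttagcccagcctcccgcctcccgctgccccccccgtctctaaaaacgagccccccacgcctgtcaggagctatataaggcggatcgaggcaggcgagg
Btg2: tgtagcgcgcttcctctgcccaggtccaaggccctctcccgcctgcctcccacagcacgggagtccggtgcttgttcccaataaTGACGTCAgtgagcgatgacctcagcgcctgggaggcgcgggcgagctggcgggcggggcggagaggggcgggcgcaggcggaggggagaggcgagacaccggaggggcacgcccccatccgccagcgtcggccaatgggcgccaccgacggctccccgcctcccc

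Of the 105 higher genes, 16 were above 1 TPM in every Fos-high cell, and these were picked out from the results. The share of all genes compared that were above 1 TPM in every Fos-high cell was not counted. Genes outside the size rule, such as *Prox1* and *Actb*, were so as well. Beside *Junb*, *Egr1*, *Nr4a3*, *Btg2* and *Plk2* the 16 included *Tagln3*, *Hn1*, *Pja1*, *Drg1*, *Atp6v1g1*, *Ppp2r4*, *Akap8l*, *Tmsb10*, *Srsf6* and *Tox4*. *Tagln3*, a gene of an actin-binding protein of neurons, ranged from 87.4 to 1747 TPM in Fos-high cells (median 618) and from 0 to 987 TPM in Fos-low cells (median 184). The ranges overlapped widely, and the Fos-high cell was higher in 75.9% of pairs. *Tmsb10*, a thymosin gene that is high in young neurons, reached 1737 to 3078 TPM in the 3 cells with high immature markers, and without them it and the splicing factor gene *Srsf6* no longer passed the rule, while the other 14 did.

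Of the 105 higher genes, 3 had no Fos-low cell above 1 TPM. A gene had to be above 1 TPM in at least 10 of the 38 cells to be compared, so these 3 passed the filter through Fos-high cells alone. How many of all 9081 genes had no Fos-low cell above 1 TPM was not counted. Besides *Dusp6* the 3 genes were *Naif1* and *1700016P03Rik*, both chosen with their values in view. The transcript *1700016P03Rik* was above 1 TPM in 17 of 21 Fos-high cells, with a median of 33.02 and a highest value of 106 TPM, and was at 0 TPM in all 17 Fos-low cells. In the GRCm38 annotation its locus contains the genes of 2 microRNAs, *Mir212* (chr11:75173388-75173478, plus strand) and *Mir132* (chr11:75173682-75173747, plus strand), both known as targets of CREB in neurons. The microRNAs themselves are not measured by these libraries. Their mature 3p arms, taken from RefSeq, are shown with the seed (bases 2 to 8) in capitals, since both share it.
mmu-miR-212-3p: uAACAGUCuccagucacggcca
mmu-miR-132-3p: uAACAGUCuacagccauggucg

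Among the 54 lower genes, the 10 largest differences were those of *B3galnt1* (-3.97), *Abhd6* (-3.94), *Cdhr1* (-3.89), *Unc50* (-3.85), *Chn1os1* (-3.76), *Shisa5* (-3.67), *Omg* (-3.53), *Snhg20* (-3.38), *Mal2* (-2.99) and *Creg2* (-2.95). All 10 also passed without the 3 cells with high immature markers, at -2.37 for *Creg2* to -3.78 for *B3galnt1*. All 10 passed as well without the cells with title number 1. With all 47 saline cells, the shallow ones included, *Abhd6* was the 1 gene of the 10 that still passed. *Cdhr1*, *Chn1os1*, *Omg*, *Mal2* and *Creg2* no longer passed with a *Fos* threshold of 1000 TPM, *Shisa5*, *Mal2* and *Creg2* with a pseudocount of 10, and *Cdhr1* and *Shisa5* when a gene had to be above 1 TPM in 20 cells.

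*Abhd6*, at chr14:8002902-8056763 (plus strand), encodes a hydrolase of the endocannabinoid 2-arachidonoylglycerol and was the steadiest of them. It ranged from 149 to 881 TPM in the Fos-low cells (median 314), and was above 1 TPM in all 17. In Fos-high cells it ranged from 0 to 254 TPM (median 69.7) and was above 1 TPM in 15 of 21. The Fos-high cell was higher in 3.92% of pairs. *B3galnt1*, a glycosyltransferase gene, had medians of 2.59 TPM in Fos-high and 321 TPM in Fos-low cells, and was above 1 TPM in 11 of 21 and 15 of 17 cells. *Omg*, which encodes a myelin glycoprotein that is also made by neurons, had medians of 0 and 140 TPM. *Cdhr1* and *Shisa5* were each above 1 TPM in 4 of 21 Fos-high cells and in 13 and 14 of 17 Fos-low cells. *Chn1os1* is annotated as antisense to *Chn1*, and without strand the reads of the 2 genes cannot be told apart.

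Of 26 genes of glutamate and GABA(A) receptors and calcium channels, 24 passed the filter and none was higher. The median difference over the 24 was -0.70, against 0.23 over all genes passing the filter, and 6 of the 24 had a positive difference. Over all 26 listed genes the median was -0.61. Without the 3 cells with high immature markers the median of the 24 genes was -0.34 in place of -0.70. Of 16 granule cell markers none passed, with a median of -0.65, and the median was 0.05 without the 3 cells, when *Rbfox3* and *Plk5* were higher. *C1ql3*, a synaptic organizer gene, had a difference of -1.23, and of -0.40 without the 3 cells. The largest differences among these markers were those of *Plk5* (3.02) and *Neurod2* (2.30), each with a share of pairs just under 75%. *Cck*, a neuropeptide gene on the interneuron list, had a difference of -3.27, with medians of 49.5 and 905 TPM, and narrowly missed the rule at 25.2% of pairs.

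The immature neuron list had 4 of 10 genes that passed the filter and none past the rule. *Dcx* (1.72), *Sox11* (1.30), *Stmn1* (1.29) and *Tubb3* (0.94) had positive differences, which were 0.81, 0.39, 0.80 and -0.37 without the 3 cells that stood apart.

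Further lower genes were chosen for their known roles with their values in view. *Manf* (-2.95), a secreted factor of the endoplasmic reticulum, *Ssr4* (-2.80), a subunit of the translocon-associated complex, and *Atp2a2* (-2.69), the calcium pump of the endoplasmic reticulum, were lower. So were the lysosomal membrane gene *Lamp2* (-2.53), the mannose 6-phosphate receptor gene *M6pr* (-2.39), the secreted protease inhibitor gene *Cst3* (-2.36), the sodium pump subunit gene *Atp1b1* (-2.22) and the membrane protease gene *Adam10* (-2.15). *Manf* had medians of 64.3 TPM in Fos-high and 197 TPM in Fos-low cells, and *Atp1b1* of 1227 and 2810 TPM. Without the 3 cells with high immature markers *Atp2a2* (-2.13), *M6pr* (-1.77) and *Atp1b1* (-0.93) did not pass, and the other 5 did.

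A few abundant genes had a small but steady difference that the size rule does not count. The Fos-high cell was higher in under 10% of pairs for 4 genes, *Abhd6* and 3 that did not pass, which were all above 1 TPM in every cell. *Atp6v0c*, a subunit of the vacuolar proton pump, ranged from 134 to 4778 TPM in Fos-high cells (median 2529) and from 2982 to 9867 TPM in Fos-low cells (median 4998), a difference of -1.32 with 2.80% of pairs. *Tspan7* (-1.41) and *Grina* (-1.37), both genes of membrane proteins, had medians of 1583 and 3251 TPM and of 1002 and 2164 TPM. These differences were -1.05 to -1.13 without the 3 cells with high immature markers. In the other direction 4 genes outside the rule were higher in over 82% of pairs, *Actb* (0.82), *H3f3b* (1.93), *Rpl21* (1.13) and *Ubb* (0.91). *Actb*, the cytoplasmic actin gene, ranged from 4245 to 13050 TPM in Fos-high cells and from 1583 to 6873 TPM in Fos-low cells. *Rpl21* belongs to a family with many near-identical copies and is uncertain.

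The same split was made in 30 PTZ-treated whole cells over the same depth limit, of which 14 were Fos-high and 16 Fos-low. The total counts of these groups had medians of 1632701 and 900749, so that the Fos-high cells were the deeper ones here, unlike in saline cells. Of the 105 genes higher in saline cells, 96 had a positive difference in PTZ cells (91.4%), against 60.3% of the 8402 genes compared there. Of them, 30 passed the same rule, which is 28.6% of the saline genes and 8.90% of the 337 genes higher in PTZ cells. Of the 54 lower genes, 43 had a negative difference (79.6%), against 39.7%, and 8 passed, 14.8% of the saline genes and 4.85% of the 165 lower in PTZ cells. *Nr4a1* (8.98 in saline and 7.67 in PTZ cells), *Egr1* (7.03 and 6.90) and *Arl4d* (5.34 and 5.15) had like differences in both. *Npas4* had 7.90 in saline and 4.73 in PTZ cells, *Tiparp* 6.16 and 3.38, and *Srf* 2.81 and 1.01. *Snhg20* was lower in both (-3.38 and -2.75). *Mal2* had -2.99 and -3.45 but did not pass in PTZ cells, where the Fos-high cell was higher in 26.8% of pairs, and *Shisa5* was -3.67 in saline and 1.77 in PTZ cells. *Dcx*, *Stmn1* and *Tubb3* of the immature list had differences of 3.24, 3.41 and 3.20 in PTZ cells. None of these differences between treatments was tested.

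Nuclei sorted by FOS protein after NE gave a separate view, with 40 FOS+ and 41 FOS- nuclei of another strain, preparation and table. Levels were normalized separately from those of the whole cells, so each difference stands on its own. Before its own comparison the study set aside FOS+ nuclei that grouped with FOS- nuclei and had little *Arc*, *Fos* and *Egr1* RNA. Here only the depth limit was applied, so such nuclei can be among the 40. How far they change the differences was not tested. Of the higher genes 104 are in that table, and 56 of them had a positive difference (53.8%), against 42.7% of 13213 genes, and 7 passed the rule, 6.73% of the saline genes and 10.1% of the 69 higher in nuclei. Of the 54 lower genes 30 had a negative difference (55.6%), against 57.4%, and none was among the 9 genes lower in nuclei. *Arc* (5.79 in saline cells and 6.63 in nuclei), *Plk2* (4.82 and 6.06), *Fbxo33* (3.55 and 4.50) and *Nr4a2* (5.34 and 4.56) were of like size in both. *Nr4a1* was 8.98 in saline cells and 2.32 in nuclei, *Npas4* 7.90 and 1.09, *Egr1* 7.03 and 1.61, and *Ppp1r15a* 5.99 and -0.06. In nuclei *Ppp1r15a* was above 1 TPM in 1 of 40 FOS+ and 1 of 41 FOS- nuclei.

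**Figure D5:**
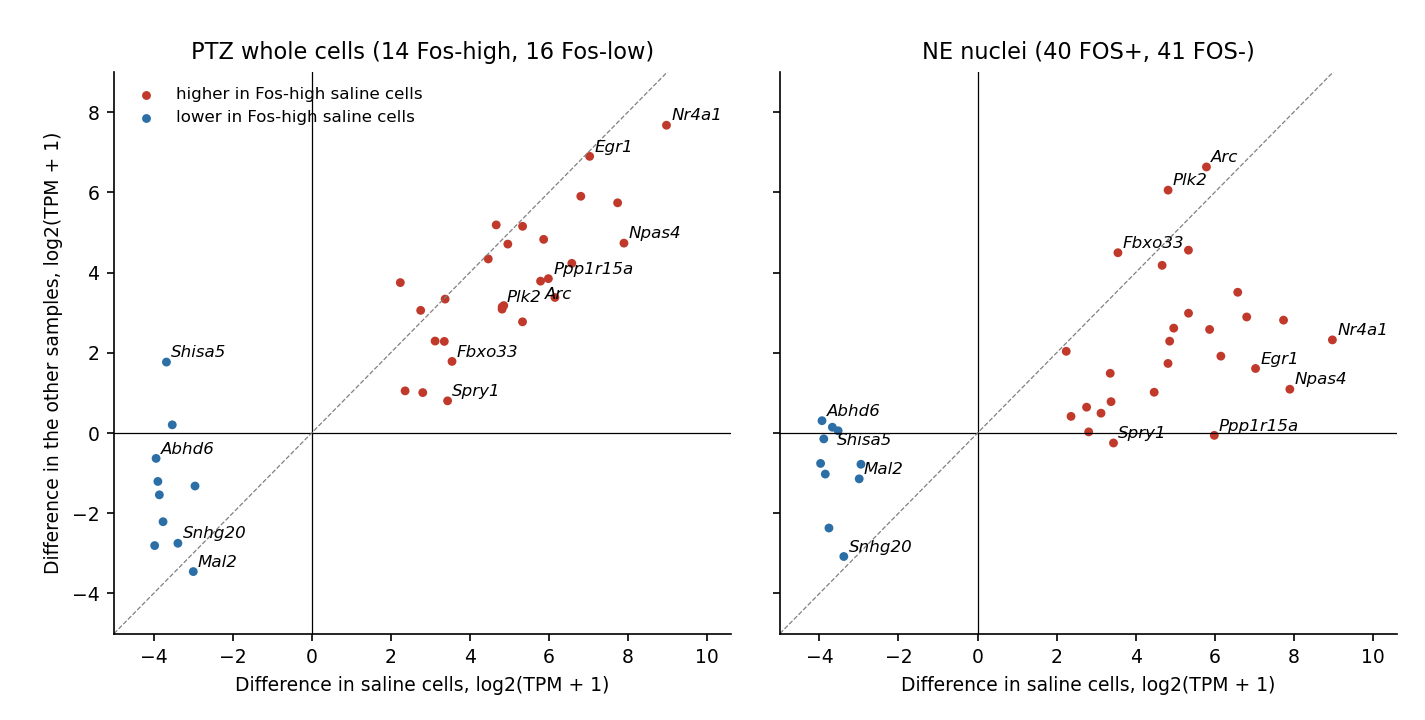
Each point is 1 of 37 named genes past the size rule in saline cells, with its difference in mean log2(TPM + 1) in saline cells on the x axis and in PTZ whole cells (left) or NE nuclei (right) on the y axis, and a dashed line marks equal values. In PTZ cells all 27 higher genes lie above 0, and in nuclei *Arc*, *Plk2* and *Fbxo33* lie above the dashed line while *Nr4a1*, *Npas4*, *Egr1* and *Ppp1r15a* lie far below it.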

How the data were processed

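Expected counts and TPM values were used as deposited for whole cells and NE nuclei. To make them, the authors trimmed reads with Solexa-QA++, aligned them to the mm10 genome and Ensembl annotation with RSEM and Bowtie 1.0.0 (per the submitters' processing notes and the study's methods), and looked up gene symbols with biomaRt. Expected counts are unnormalized, and the deposited TPM is scaled by the authors within each cell. The tables hold no ERCC spike-ins. From these values, cells were split by *Fos*, and TPM was compared as log2(TPM + 1). That scale understates differences of genes at low level. RSEM divides reads between near-identical genes, and such genes are uncertain.

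The study's methods test cells with edgeR; here cells of 1 pool were not taken as replicates, and no test was run. Only edgeR's TMM factors were used, on rounded expected counts, as an alternative. In the cells kept, 3 counts are 1.11e-04% to 7.48e-04% of the total. In simulated cells the size rule picked 37% of genes given a log2 change of 4, 12% of those given 2 and 0.387% of 9567 unchanged genes, so there it missed most moderate changes in level. Each simulated gene was on or off with the same probability in both groups, and only its level was raised. The shares picked therefore do not describe genes that differ between the groups in detection.

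The members, the 16 gene lists (278 symbols) and the rules were chosen with earlier results of these data known. Named genes are *Junb*, *Egr1*, *Arc*, *Prox1* and *Rbfox3*, the 10 largest differences past the size rule in each direction, the list members past the rule or otherwise up to 4 per list, and 2 defining markers of each other cell type. Some genes that the rule names are not reported here. Other names are marked as chosen with their values in view. Positions are from the GENCODE annotation of GRCm38, which holds all 64 named genes, and promoters and microRNAs are from RefSeq tables of GRCm38.p6. Python 3.11.15, pandas 2.3.3, numpy 2.4.6, scipy 1.17.1, matplotlib 3.10.9, R 4.3.3 and edgeR 4.0.16 were used.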

Additional observations from a re-analysis of the deposited data

How the results depend on the processing

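The 105 higher genes and the 26 list members among them numbered 109 and 26 with TMM-scaled CPM, and 106 and 28 after thinning to equal depth, and 94 of the 105 passed with the first and 85 with the second. With a pseudocount of 10 there were 34 higher and 7 lower genes, all of them among the 105 and 54. The higher genes lost there included *Jund*, *Trib1*, *Fbxo33*, *Dusp4*, *Spry1*, *Srf* and *Ddit4*. When a gene had to be above 1 TPM in 20 cells, *Arc*, *Arl4d*, *Trib1*, *Fbxo33*, *Dusp4*, *Dusp6*, *Spry1* and *Srf* were among those lost. With all 47 saline cells, the shallow ones included, there were 48 higher and 3 lower genes, and *Trib1*, *Spry1*, *Dnajb1* and *Ddit4* were among the higher genes lost. A *Fos* threshold of 1000 TPM, which moves 4 cells, left 24 lower genes, of which 9 were among the 54. A difference of 2 without the limit on pairs gave 424 higher and 155 lower genes, and a difference of 1 with it gave 120 lower genes. Among alternatives chosen after seeing the data, leaving out the 3 cells with high immature markers left 34 lower genes, leaving out the cells with title number 1 left 82, and leaving out the 4 Fos-high cells with at most 1000 TPM of *Fos* gave 166 higher genes. The 1 lower list member became 2 with a pseudocount of 0.1, 3 without the cells with title number 1, and 0 with a pseudocount of 10, with the threshold of 1000 TPM, with all saline cells, without the 3 cells or without the 4 cells. Apart from what these settings do by construction, the cause was not tested.

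Leaving out 1 cell at a time gave 100 to 134 higher genes, 42 to 74 lower genes, 26 to 31 list members higher and 1 to 2 lower, and 74 of the 105 and 33 of the 54 genes passed in all 38 sets. The difference in genes per cell was 329 to 543 in these sets and 230 to 738 over the other settings. The median difference over all genes was 0.06 without the filter and 0.11 to 0.40 otherwise. In every alternative run, all 105 and all 54 genes had the direction they had at first. No paired analysis was possible because the results come from no test and the cells of the 2 groups share no replicate number that pairs them.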
